A study of Mus musculus with 11 samples.

Results

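Wnt signalling was followed through 46 genes, grouped by their function: 13 for the ligands and their secretion, 13 receptors, 4 R-spondins or R-spondin receptors, 8 secreted antagonists and 8 effectors. An Affymetrix whole-transcript array was used, on which 19937 mouse genes had a probe set of their own. Of the 46 genes, 45 had at least 1 probe set annotated to that gene alone, and all 45 passed the filter on low values in each of the 4 groups. The exception was Tcf7, which is not analysed here.

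The 11 arrays profiled total RNA of mouse embryonic fibroblasts (MEFs, embryonic connective tissue cells grown in culture) of mixed C57BL/6 x 129/SvJ background, labelled MEF LSL. In p53 LSL/LSL cells both copies of the p53 gene carry a lox-stop-lox cassette that blocks expression until the recombinase Cre removes it. All groups had been infected with AdenoCre at a multiplicity of 5 for 24 h, so that p53 was restored in knockdown and control cells alike, and all had received 150 nM doxorubicin, a DNA-damaging drug, for 12 h. The groups were p53 siRNA (a small interfering RNA against the p53 messenger, 3 arrays), control siRNA (3 arrays), Pint ASO (antisense oligonucleotides, used as a pool, against the long non-coding RNA Pint, 3 arrays) and control ASO (2 arrays). No untreated or unrestored cells were among the arrays, so each value describes damaged, p53-restored fibroblasts. Whether the replicates were separate cultures or embryos was not given in the labels, and the p-values then measure the spread between these arrays, which may be technical.

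Wnt proteins are lipid-modified secreted ligands that bind Frizzled receptors together with the coreceptors Lrp5 and Lrp6, which stops the destruction complex of Axin, Apc and Gsk3b from breaking down beta-catenin and lets beta-catenin enter the nucleus and act with Tcf and Lef factors. R-spondins, bound by Lgr receptors, raise the amount of Frizzled at the cell surface, while secreted antagonists of the Sfrp and Dkk families and Wif1 hold ligands or coreceptors back. In mesenchymal cells such as fibroblasts the pathway is known for its roles in proliferation, cell fate and the production of matrix.

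Array medians lay between 7.31 and 7.38 on the log2 scale, and arrays of a group correlated at 0.993 to 0.995. All 12 fibroblast markers tested were measured at mean log2 values of 9.69 to 14.3. Of 39 markers of 7 other cell types, 34 passed the filter on low values, among them Cnn1 of smooth muscle (mean log2 value 12.2) and Cd68 of macrophages (10.0), and Epcam, Ptprc, Adgre1, Adipoq and Myh3 did not. Lncpint, the gene of Pint, read 8.60, 8.48 and 8.55 with Pint ASO, against 10.41 and 10.23 with control ASO, a fall of 1.78 on the log2 scale to 29.2% of its control (limma adjusted p = 2.94e-05, SE 0.12). It also fell with p53 siRNA, to 9.13, 9.02 and 9.06, against 9.43, 9.88 and 9.53 with control siRNA (log2 change -0.54, SE 0.11, limma adjusted p = 0.00673). The groups did not overlap in either comparison, and a two-sided permutation test, exact for groups this small, could not go below the p = 0.1 that it gave each time. Lncpint was also higher with control ASO than with control siRNA, by 0.71 on the log2 scale (SE 0.12, limma adjusted p = 0.0137). That call was lost under some alternatives. Trp53, the gene of p53, is not analysed here.

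With p53 siRNA, 15 of the 45 genes changed (10 rose and 5 fell), and with Pint ASO 17 changed (2 rose and 15 fell), each against its own control. The largest fall with p53 siRNA was that of the ligand gene Wnt9a and the largest rise that of the receptor gene Fzd4. With Pint ASO, the largest falls were those of the secreted antagonists Sfrp2, Sfrp1 and Dkk3 and of the R-spondins Rspo2 and Rspo3, all of which came to between 41.9% and 50.5% of control. Calls were made with limma across all 26038 probe sets with a log2 value above 6 in at least 2 arrays of a group, at a Benjamini-Hochberg adjusted p under 0.05. Of all probe sets tested, 16.9% were called for p53 siRNA (7.97% higher, 8.96% lower) and 19.1% for Pint ASO (8.49% higher, 10.7% lower). Counted as genes with 1 probe set each, as the 45 were, the shares were 21.3% (10.6% higher, 10.6% lower) and 25.2% (11.3% higher, 13.9% lower), beside 33.3% and 37.8% of the 45 Wnt genes. Under the stricter rule that the log odds of change, B, exceed 3, 5 of the 45 were called for p53 siRNA and 7 for Pint ASO, beside 3.92% and 3.12% of all probe sets. The share by gene was not counted under this rule.

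The median log2 change of the 45 genes was 0.13 for p53 siRNA, beside 0.02 over all genes tested, and -0.04 for Pint ASO, beside 0.01. Arrays of p53 siRNA and control siRNA did not overlap for 32 of the 45 genes, where 41.9% of all genes had no overlap. For Pint ASO and control ASO there was no overlap for 24 of the 45, against a background of 46.5%. In bulk samples, fewer cells that express a gene and less RNA per cell cannot be told apart. The Pint comparison rested on 2 control arrays, and leaving out either left 1 array in that group. Fewer calls were then made, among the 45 genes and over all probe sets alike. Fitted on the ASO arrays alone, the Pint comparison called 8 of the 45. Over all 26038 probe sets that fit called 1890, against 4985 in the fit over all 4 groups. In it the calls of Wnt5a (adjusted p = 0.0841), Wnt11 (0.064), Fzd2 (0.142), Fzd4 (0.0625), Fzd6 (0.0696), Lrp5 (0.236), Frzb (0.0748), Lgr4 (0.166) and Axin2 (0.0579) by limma were lost.

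**Figure D1:**
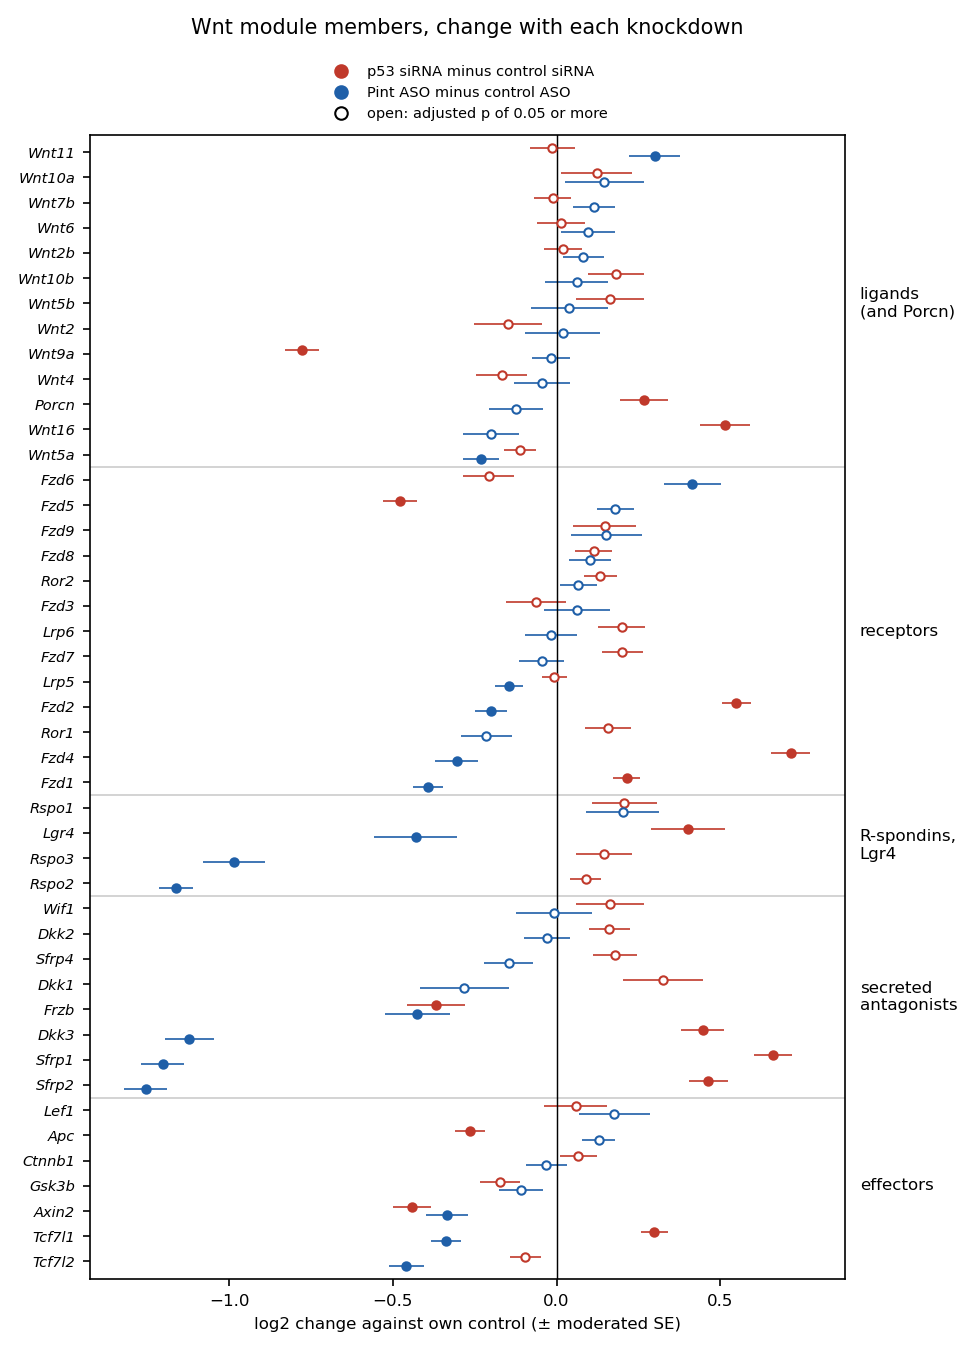
Log2 change of the 45 Wnt genes with p53 siRNA against control siRNA (red) and Pint ASO against control ASO (blue), grouped by role, with bars of 1 moderated standard error. Filled points have a limma adjusted p under 0.05; the blue points of Rspo2, Rspo3, Dkk3, Sfrp1 and Sfrp2 lie farthest to the left, between -0.98 and -1.26, and the red point of Wnt9a lies at -0.78.

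Of the ligand genes, Wnt9a fell and Wnt16 rose with p53 siRNA, and Wnt11 rose and Wnt5a fell with Pint ASO. Wnt9a, a ligand best known from joint and limb formation, read 8.75, 8.67 and 8.71 with p53 siRNA, against 9.52, 9.50 and 9.44 with control siRNA. In Pint ASO cells it read 9.54, 9.52 and 9.46, against 9.45 and 9.59 with control ASO. The 3 p53 siRNA arrays stood below all other arrays, while the Pint ASO arrays lay within the control ASO arrays. The level with p53 siRNA was 58.3% of control (log2 change -0.78, SE 0.05, limma adjusted p = 1.23e-05), and the change with Pint ASO was -0.02 (SE 0.06, adjusted p = 0.885).

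Wnt16, a ligand known for its part in cortical bone, read 7.84, 7.81 and 7.78 with p53 siRNA, against 7.34, 7.29 and 7.25 with control siRNA. With Pint ASO the arrays read 7.0, 7.03 and 7.31, against 7.29 and 7.34 with control ASO. The p53 siRNA arrays were all above their controls, whereas 1 of the 3 Pint ASO arrays lay between the control ASO arrays. Wnt16 rose 1.43-fold with p53 siRNA (log2 change 0.52, SE 0.08, limma adjusted p = 0.00136). Its change of -0.20 with Pint ASO did not pass the test (SE 0.09, adjusted p = 0.15), but did without Pint ASO replicate 3 (adjusted p = 0.0073).

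Wnt11 acts mostly through the branch that does not use beta-catenin. Its arrays read 8.27, 8.15 and 8.20 with Pint ASO, against 7.91 and 7.91 with control ASO, and 7.83, 7.79 and 7.76 with p53 siRNA, against 7.91, 7.87 and 7.65 with control siRNA. All Pint ASO arrays were above both control ASO arrays, and the siRNA groups overlapped. Wnt11 rose with Pint ASO by 0.30 on the log2 scale (SE 0.08, limma adjusted p = 0.0238) and changed by -0.01 with p53 siRNA (adjusted p = 0.927). The rise with Pint ASO was no longer called without control ASO replicate 1 (adjusted p = 0.0978) or 2 (0.0911), or without Pint ASO replicate 1 (0.074) or 3 (0.0514).

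Wnt5a, the best known ligand of that same branch, read 10.37, 10.39 and 10.40 with Pint ASO, against 10.61 and 10.63 with control ASO. In the siRNA groups it read 10.66, 10.60 and 10.60 with p53 siRNA, against 10.68, 10.68 and 10.83 with control siRNA. Neither pair of groups overlapped. The fall with Pint ASO, to 85.2% of control, was called (log2 change -0.23, SE 0.06, limma adjusted p = 0.0176) and the change of -0.11 with p53 siRNA was not (SE 0.05, adjusted p = 0.177). Without control ASO replicate 1 or 2, or Pint ASO replicate 1, the adjusted p of the fall became 0.0667, 0.0826 and 0.0509.

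Porcn encodes the enzyme that attaches the lipid to Wnt proteins. It read 8.59, 8.54 and 8.48 with p53 siRNA, against 8.19, 8.30 and 8.31 with control siRNA, and 8.08, 8.02 and 8.29 with Pint ASO, against 8.30 and 8.20 with control ASO. Only the siRNA groups stood apart. The rise of 0.27 on the log2 scale with p53 siRNA was called (SE 0.07, limma adjusted p = 0.0332) but was lost when any one of the 6 siRNA arrays was left out, with an adjusted p of 0.118 without control siRNA replicate 1, 0.0686 without control siRNA replicate 2, 0.0619 without control siRNA replicate 3, and 0.107, 0.0885 and 0.0552 without p53 siRNA replicates 1, 2 and 3.

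The other 8 ligand genes (Wnt2, Wnt2b, Wnt4, Wnt5b, Wnt6, Wnt7b, Wnt10a and Wnt10b) were not called in either comparison. Their log2 changes ran from -0.17 (Wnt4) to 0.18 (Wnt10b) with p53 siRNA and from -0.04 (Wnt4) to 0.15 (Wnt10a) with Pint ASO. Wnt4 alone had 2 probe sets. The dimmer of these changed by -0.20 with p53 siRNA (limma adjusted p = 0.0762) and by -0.20 with Pint ASO (adjusted p = 0.0963), and was not called either.

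Promoter sequence was read for the ligand gene that fell most with p53 siRNA and for the ligand gene that rose with Pint ASO, as the 250 bases before the annotated start, from RefSeq on GRCm38.p6 and on the plus strand. The Wnt9a window is chr11:59306680-59306929 and the Wnt11 window, 1 of 2 for that gene, is chr7:98834862-98835111. Capitals mark CACGTG, an E-box, in the first window and ATCAAAG, the reverse complement of CTTTGAT, in the second.
Wnt9a: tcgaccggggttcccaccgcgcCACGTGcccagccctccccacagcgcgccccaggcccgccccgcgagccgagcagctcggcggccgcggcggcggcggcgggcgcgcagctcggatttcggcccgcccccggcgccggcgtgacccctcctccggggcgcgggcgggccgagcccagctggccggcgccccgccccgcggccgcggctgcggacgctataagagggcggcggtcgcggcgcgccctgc
Wnt11: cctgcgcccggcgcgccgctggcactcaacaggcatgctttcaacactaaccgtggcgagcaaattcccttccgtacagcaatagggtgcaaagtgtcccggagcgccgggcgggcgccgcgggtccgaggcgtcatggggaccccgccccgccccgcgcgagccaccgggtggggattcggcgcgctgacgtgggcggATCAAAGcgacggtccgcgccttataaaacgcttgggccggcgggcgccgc
The E-box of Wnt9a begins 228 bases before the start, and the match in Wnt11 begins 51 bases before it. The TCF/LEF core was searched as CTTTGAT or CTTTGAA on both strands, and CACGTG, which reads the same on both, as a word of another class of factors. In all, 30 of the 46 genes had 39 such windows. A TCF/LEF core was found in 3 of the 39 windows (7.69%; Wnt11, Wnt5b and Dkk1), beside 7.48% of 32851 windows of all genes, and the E-box in 4 (10.3%; Wnt9a, Fzd9, Lef1 and Wif1), beside 6.02%. A match describes the letters and is not a binding site shown here.

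Of the 13 receptor genes, Fzd1, Fzd2 and Fzd4 rose with p53 siRNA and fell with Pint ASO, Fzd5 fell with p53 siRNA, Fzd6 rose with Pint ASO and Lrp5 fell with Pint ASO. Frizzled proteins are the membrane-spanning receptors of the ligands. Fzd4, which also binds Norrin in blood vessel growth, read 8.54, 8.60 and 8.56 with p53 siRNA, against 7.94, 7.88 and 7.73 with control siRNA. With Pint ASO it read 7.63, 7.75 and 7.65, against 8.0 and 7.96 with control ASO. Both pairs of groups were apart, in opposite directions. The level with p53 siRNA was 1.64-fold that of control (log2 change 0.72, SE 0.06, limma adjusted p = 4e-05). The fall with Pint ASO was to 80.9% of control (log2 change -0.31, SE 0.07, adjusted p = 0.0114), and was not called without control ASO replicate 1 (adjusted p = 0.07).

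Fzd2, a receptor used by Wnt5a among other ligands, read 10.14, 10.11 and 10.09 with p53 siRNA, against 9.53, 9.58 and 9.58 with control siRNA. Under Pint ASO the readings were 9.30, 9.37 and 9.41, against 9.57 and 9.55 with control ASO. Again neither pair overlapped. Fzd2 rose 1.46-fold with p53 siRNA (log2 change 0.55, SE 0.04, limma adjusted p = 2.98e-05) and fell by 0.20 on the log2 scale with Pint ASO (SE 0.05, adjusted p = 0.0183). The call for Pint ASO was lost without control ASO replicate 1 (adjusted p = 0.0887), control ASO replicate 2 (0.0642) or Pint ASO replicate 1 (0.0541), and under a further quantile normalization (0.0536).

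Fzd1, the closest relative of Fzd2 and Fzd7, read 10.44, 10.38 and 10.38 with p53 siRNA, against 10.16, 10.17 and 10.23 with control siRNA. With Pint ASO it read 9.76, 9.74 and 9.78, against 10.16 and 10.14 with control ASO. The Pint ASO arrays were the lowest of all 11 and the p53 siRNA arrays the highest. It rose by 0.21 on the log2 scale with p53 siRNA (SE 0.04, limma adjusted p = 0.00548) and fell with Pint ASO to 76.2% of control (log2 change -0.39, SE 0.05, adjusted p = 0.000412).

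Fzd5, known from eye and gut development, read 8.62, 8.60 and 8.61 with p53 siRNA, against 9.14, 9.08 and 9.05 with control siRNA, and 9.21, 9.33 and 9.36 with Pint ASO, against 9.16 and 9.08 with control ASO. The p53 siRNA arrays were far below all others. Fzd5 fell with p53 siRNA to 71.8% of control (log2 change -0.48, SE 0.05, limma adjusted p = 0.000195), and its change of 0.18 with Pint ASO just missed the threshold (SE 0.06, adjusted p = 0.0576).

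Fzd6, a receptor of the planar polarity branch that orients hairs and sensory cells, read 9.03, 9.10 and 9.04 with Pint ASO, against 8.78 and 8.50 with control ASO. With p53 siRNA it read 8.57, 8.77 and 8.69, against 8.89, 8.82 and 8.94 with control siRNA. The Pint ASO arrays were above and the p53 siRNA arrays below their own controls, and the control ASO arrays were themselves well apart. Fzd6 rose with Pint ASO by 0.41 on the log2 scale (SE 0.09, limma adjusted p = 0.0096), a call lost without control ASO replicate 2 (log2 change 0.28, adjusted p = 0.0695), and its change with p53 siRNA of -0.21 was not called (adjusted p = 0.111).

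Lrp5, the coreceptor known for its part in bone mass, read 10.15, 10.21 and 10.21 with Pint ASO, against 10.32 and 10.36 with control ASO, and 10.28, 10.26 and 10.27 with p53 siRNA, against 10.27, 10.29 and 10.28 with control siRNA. Both controls were above the Pint ASO arrays by a small step. The fall of 0.14 on the log2 scale was called with limma (SE 0.04, adjusted p = 0.0427), and was called no longer when any one of the 11 arrays was left out (adjusted p of 0.0591 to 0.172). The related coreceptor Lrp6 changed by 0.20 with p53 siRNA and -0.02 with Pint ASO, neither called.

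The other 6 receptor genes were not called in either comparison. Fzd7 came nearest with p53 siRNA, at a log2 change of 0.20 (limma adjusted p = 0.0546). The changes of Ror1, Fzd9, Ror2, Fzd8 and Fzd3 with p53 siRNA were 0.16, 0.15, 0.13, 0.11 and -0.06. With Pint ASO, Ror1, a receptor kinase for Wnt5a, changed by -0.21 (adjusted p = 0.0906), and Fzd3, Fzd7, Fzd8, Fzd9 and Ror2 by -0.05 to 0.15.

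**Figure D2:**
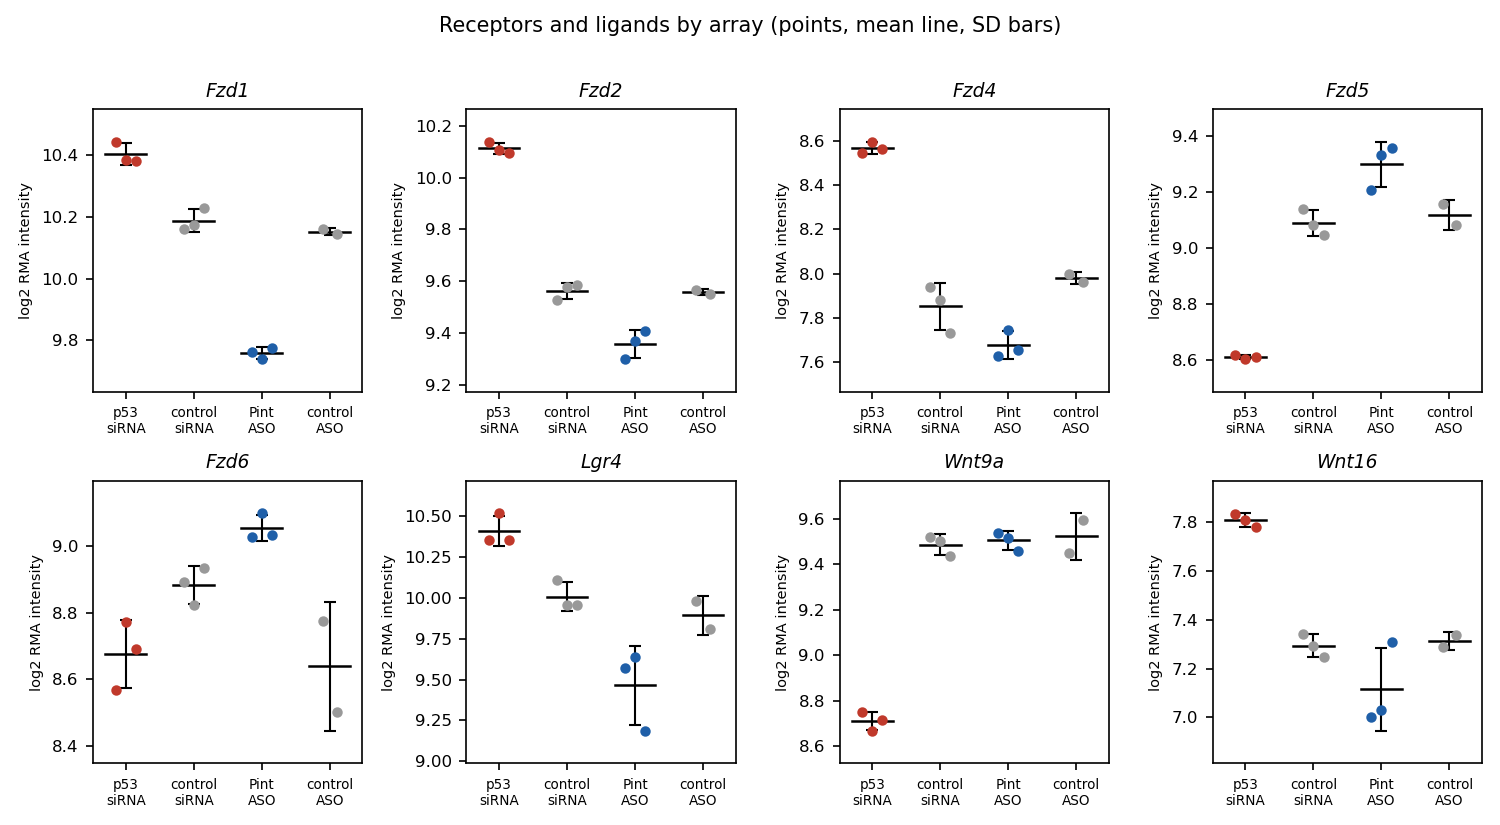
Log2 RMA intensity of Fzd1, Fzd2, Fzd4, Fzd5, Fzd6, Lgr4, Wnt9a and Wnt16 in each array (points, with a line at each mean and bars of 1 SD) for p53 siRNA, control siRNA, Pint ASO and control ASO; each panel has its own vertical scale. Fzd1, Fzd2, Fzd4 and Lgr4 had their highest mean with p53 siRNA and their lowest with Pint ASO, whereas Wnt9a stood apart only with p53 siRNA, at 8.67 to 8.75.

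Among the R-spondins, Rspo2 and Rspo3 fell with Pint ASO to about the same share of control, and Rspo1 changed in neither comparison. Rspo2, a secreted potentiator of Wnt signals known from limb and lung growth, read 9.25, 9.26 and 9.18 with Pint ASO, against 10.40 and 10.39 with control ASO. In the siRNA groups it read 10.73, 10.78 and 10.82 with p53 siRNA, against 10.63, 10.68 and 10.74 with control siRNA. The Pint ASO arrays were more than 1 log2 unit below every other array, and the siRNA groups overlapped. The fall with Pint ASO was 2.24-fold, to 44.7% of control (log2 change -1.16, SE 0.05, limma adjusted p = 6.77e-06). The change with p53 siRNA was 0.09 (SE 0.05, adjusted p = 0.257).

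Rspo3, which has the same function and is known from blood vessel development, read 9.06, 9.0 and 8.78 with Pint ASO, against 10.01 and 9.86 with control ASO. With p53 siRNA it read 10.10, 10.13 and 10.29, against 10.04, 9.96 and 10.09 with control siRNA. Here too the Pint ASO arrays were the lowest of the 11 by a wide step. Rspo3 fell with Pint ASO to 50.5% of control (log2 change -0.98, SE 0.10, limma adjusted p = 0.000163) and changed by 0.15 with p53 siRNA (SE 0.09, adjusted p = 0.31). Rspo1 changed by 0.21 with p53 siRNA (adjusted p = 0.213) and by 0.20 with Pint ASO (adjusted p = 0.267).

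Lgr4, a receptor of the R-spondins, read 10.36, 10.52 and 10.36 with p53 siRNA, against 10.11, 9.96 and 9.96 with control siRNA. With Pint ASO the readings were 9.57, 9.64 and 9.19, against 9.98 and 9.81 with control ASO. Each knockdown was clear of its own control, and Pint ASO replicate 3 was clearly lower than the other Pint ASO arrays. Lgr4 rose by 0.40 with p53 siRNA (SE 0.11, limma adjusted p = 0.0398) and fell by 0.43 with Pint ASO (SE 0.13, adjusted p = 0.0431), both on the log2 scale. The rise was lost without any one of the 6 siRNA arrays or Pint ASO replicate 1, and the fall without any one array other than Pint ASO replicate 2, the adjusted p reaching 0.126 (without p53 siRNA replicate 2) and 0.229 (without control ASO replicate 1).

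Of the 8 secreted antagonists, Sfrp1, Sfrp2 and Dkk3 rose with p53 siRNA and fell more than 2-fold with Pint ASO, and Frzb fell in both comparisons. Sfrp proteins resemble the ligand-binding part of Frizzled and bind Wnt ligands outside the cell. Sfrp1 read 12.45, 12.30 and 12.24 with p53 siRNA, against 11.61, 11.69 and 11.72 with control siRNA. With Pint ASO it read 10.31, 10.31 and 10.34, against 11.51 and 11.53 with control ASO. All Pint ASO arrays were close to each other and more than 1 log2 unit below all others. Sfrp1 rose 1.58-fold with p53 siRNA (log2 change 0.66, SE 0.06, limma adjusted p = 5.92e-05) and fell 2.3-fold with Pint ASO, to 43.4% of control (log2 change -1.20, SE 0.07, adjusted p = 1.1e-05).

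Sfrp2 read 12.18, 12.27 and 12.20 with p53 siRNA, against 11.79, 11.73 and 11.73 with control siRNA. With Pint ASO the values were 10.24, 10.23 and 10.06, against 11.38 and 11.48 with control ASO. The order of the groups was that of Sfrp1, with p53 siRNA highest and Pint ASO lowest. It rose 1.38-fold with p53 siRNA (log2 change 0.46, SE 0.06, limma adjusted p = 0.000553). With Pint ASO it had the largest change of all 45 genes, a 2.39-fold fall to 41.9% of control (log2 change -1.26, SE 0.07, adjusted p = 1.03e-05).

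Dkk3, a divergent member of the Dickkopf family whose effect on the pathway differs between cell types, read 10.85, 10.88 and 10.95 with p53 siRNA, against 10.47, 10.45 and 10.42 with control siRNA. In Pint ASO cells it read 9.05, 9.13 and 8.92, against 10.24 and 10.07 with control ASO. No groups overlapped in either comparison. The rise with p53 siRNA was 1.36-fold (log2 change 0.45, SE 0.07, limma adjusted p = 0.0013) and the fall with Pint ASO 2.18-fold, to 46% of control (log2 change -1.12, SE 0.07, adjusted p = 2.58e-05).

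Most fibroblast markers moved with these genes in at least 1 comparison. Col1a1, Col1a2, Col3a1, Pdgfra, Pdgfrb and S100a4 were called in both, and Thy1, Prrx1 and Dcn with Pint ASO only. Vim, Fn1 and Twist1 were called in neither. Of 12 markers tested, 6 rose and none fell with p53 siRNA, and none rose and 9 fell with Pint ASO, where 21.3% and 25.2% of all genes were called in either direction. The summed linear level of the list was 91960 to 92540 with p53 siRNA, against 82050 to 83970 with control siRNA, and 65930 to 67970 with Pint ASO, against 79540 to 79590 with control ASO. Of the 34 markers of other cell types tested, 4 rose and 5 fell with p53 siRNA, and 3 rose and 6 fell with Pint ASO. The smooth muscle list summed to 8004 to 8357 with p53 siRNA, against 6679 to 7125 with control siRNA, and to 5524 to 5604 with Pint ASO, against 6003 to 6378 with control ASO. The adipocyte list summed to 1135 to 1263 with p53 siRNA, against 876.4 to 1020 with control siRNA, and to 739.8 to 781.3 with Pint ASO, against 793.2 to 847.5 with control ASO. Both sums were above their control with p53 siRNA and below it with Pint ASO, as the fibroblast sum was. Other lists differed. The macrophage and blood list was lower with both knockdowns, at 1149 to 1223 with p53 siRNA, against 1936 to 2047 with control siRNA. Cd68 held most of this sum and was called lower with both, by 0.47 on the log2 scale with Pint ASO. Cd14 was called lower with p53 siRNA only (-0.51), and Csf1r and Itgam were called in neither comparison. Ptprc and Adgre1 were below the filter. With Pint ASO the endothelium (751.1 to 769.4, against 603.3 to 664.9), skeletal muscle and neural lists were above control ASO. The epithelium list was below control ASO. Few markers of these lists were called. Kdr was the only endothelial and Acta1 the only skeletal muscle marker called higher, and Tek of endothelium was called lower (-0.17). No neural marker was called, and Cdh1 was the only epithelial marker called. With p53 siRNA the endothelium list was above control siRNA with no marker called, and the epithelium, skeletal muscle and neural lists overlapped control siRNA. Of single markers, Cd68 changed by -1.04 on the log2 scale with p53 siRNA, Lpl of adipocytes by 0.86 with p53 siRNA and -0.51 with Pint ASO, and Kdr of endothelium by 0.77 and Cdh1 of epithelium by -0.68 with Pint ASO, all called. Cnn1 held most of the smooth muscle sum, and changed by 0.30 with p53 siRNA and -0.40 with Pint ASO. Des of the same list changed by -0.87 and -0.35, and Smtn by 0.20 and 0.54, all called. Lpl was the only adipocyte marker called in either comparison. The part of these shifts in the changes of Sfrp1, Sfrp2, Dkk3, Rspo2 and Rspo3 was not tested.

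Frzb, also called Sfrp3 and known from cartilage, read 7.76, 7.88 and 7.74 with p53 siRNA, against 8.25, 8.01 and 8.22 with control siRNA. With Pint ASO it read 7.59, 7.72 and 7.55, against 8.17 and 7.92 with control ASO. Both knockdowns were below their own controls. Frzb fell by 0.37 on the log2 scale with p53 siRNA (SE 0.09, limma adjusted p = 0.0198) and by 0.43 with Pint ASO (SE 0.10, adjusted p = 0.0157). The first call was lost without control siRNA replicate 1 (adjusted p = 0.0763) or 3 (0.0715) or p53 siRNA replicate 1 (0.0635) or 3 (0.0709), and the second without control ASO replicate 1 (0.129).

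The other 4 antagonists were not called. Dkk1, which blocks Lrp5 and Lrp6, read 8.28, 8.30 and 8.40 with p53 siRNA, against 7.96, 7.98 and 8.06 with control siRNA, and 7.5, 7.10 and 7.67 with Pint ASO, against 7.68 and 7.73 with control ASO. Its groups did not overlap in either comparison. The spread among the Pint ASO arrays was wide, and neither the change of 0.33 with p53 siRNA (SE 0.12, limma adjusted p = 0.106) nor that of -0.28 with Pint ASO (SE 0.14, adjusted p = 0.199) passed the test. The changes of Sfrp4, Dkk2 and Wif1 were 0.18, 0.16 and 0.16 with p53 siRNA and -0.15, -0.03 and -0.01 with Pint ASO.

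**Figure D3:**
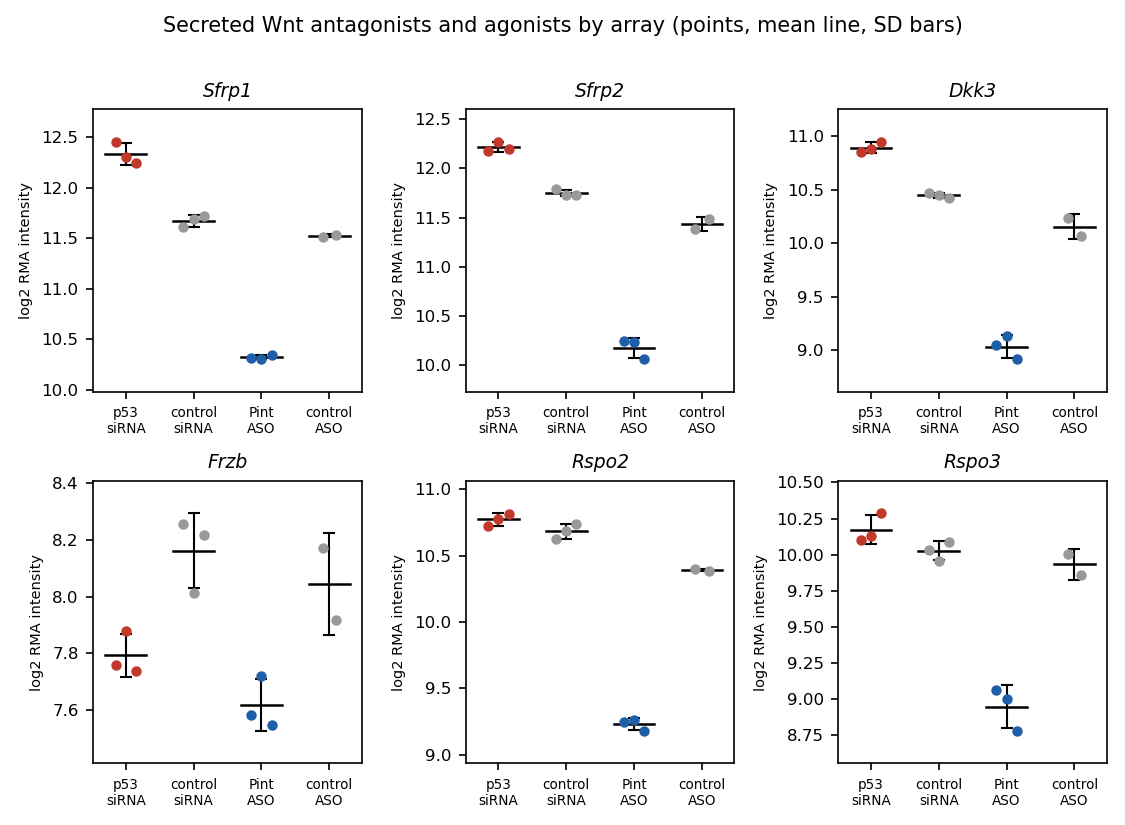
Log2 RMA intensity of the antagonists Sfrp1, Sfrp2, Dkk3 and Frzb and the R-spondins Rspo2 and Rspo3 in each array (points, with a line at each mean and bars of 1 SD) for p53 siRNA, control siRNA, Pint ASO and control ASO; each panel has its own vertical scale. The Pint ASO arrays were the lowest in every panel, for Sfrp2 at 10.06 to 10.24.

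Of the 7 effectors tested, Axin2 fell in both comparisons, Tcf7l1 rose with p53 siRNA and fell with Pint ASO, Tcf7l2 fell with Pint ASO and Apc fell with p53 siRNA. Axin2, a scaffold of the destruction complex and itself a common readout of beta-catenin activity, read 7.37, 7.37 and 7.36 with p53 siRNA, against 7.87, 7.70 and 7.85 with control siRNA. Under Pint ASO the readings were 7.36, 7.3 and 7.37, against 7.61 and 7.75 with control ASO. The knockdown arrays were all at about the same level, below every control array. Axin2 fell with p53 siRNA to 73.6% of control (log2 change -0.44, SE 0.06, limma adjusted p = 0.000627) and with Pint ASO to 79.4% (log2 change -0.33, SE 0.06, adjusted p = 0.00634). The second call was lost without control ASO replicate 2 (log2 change -0.26, adjusted p = 0.0545).

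Tcf7l1, a factor that mostly represses its targets where beta-catenin is absent, read 9.88, 9.87 and 9.83 with p53 siRNA, against 9.55, 9.54 and 9.60 with control siRNA. With Pint ASO it read 9.16, 9.16 and 9.20, against 9.48 and 9.53 with control ASO. The groups were clear of each other in both comparisons. The rise with p53 siRNA was 0.30 on the log2 scale (SE 0.04, limma adjusted p = 0.000793) and the change with Pint ASO was -0.34 (SE 0.05, adjusted p = 0.000915).

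Tcf7l2, a main nuclear partner of beta-catenin, read 9.34, 9.39 and 9.42 with Pint ASO, against 9.87 and 9.82 with control ASO. With p53 siRNA it read 9.95, 9.96 and 10.02, against 10.01, 10.13 and 10.06 with control siRNA. The Pint ASO arrays were the lowest of all 11, and the siRNA groups overlapped. It fell with Pint ASO to 72.7% of control (log2 change -0.46, SE 0.05, limma adjusted p = 0.000433) and changed by -0.10 with p53 siRNA (adjusted p = 0.233).

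Apc, the tumor suppressor scaffold of the destruction complex, read 10.67, 10.59 and 10.64 with p53 siRNA, against 10.86, 10.92 and 10.91 with control siRNA. With Pint ASO the readings were 11.17, 11.18 and 11.25, against 11.11 and 11.03 with control ASO. The p53 siRNA arrays were the lowest and the Pint ASO arrays the highest of the 11. Apc fell with p53 siRNA to 83.2% of control (log2 change -0.26, SE 0.05, limma adjusted p = 0.00325) and its change of 0.13 with Pint ASO was not called (SE 0.05, adjusted p = 0.118).

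The genes of beta-catenin itself and of the kinase that marks it for breakdown were not called. Ctnnb1 changed by 0.07 with p53 siRNA and -0.03 with Pint ASO, and Gsk3b by -0.17 (limma adjusted p = 0.0883) and -0.11. Lef1 changed by 0.06 with p53 siRNA and 0.18 with Pint ASO.

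Promoter sequence is given for the antagonist with the largest fall with Pint ASO and for the effector that fell in both comparisons, again as the 250 bases before the start from RefSeq on GRCm38.p6, plus strand. The Sfrp2 window is chr3:83766071-83766320 and the Axin2 window is chr11:108920099-108920348. Neither holds a TCF/LEF core or the E-box as searched, so there are no capitals, and this says only that those letters are not in these windows.
Sfrp2: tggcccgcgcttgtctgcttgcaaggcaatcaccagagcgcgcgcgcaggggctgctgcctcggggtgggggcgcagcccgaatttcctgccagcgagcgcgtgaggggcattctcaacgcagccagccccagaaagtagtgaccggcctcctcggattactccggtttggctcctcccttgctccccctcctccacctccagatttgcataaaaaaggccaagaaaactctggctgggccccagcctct
Axin2: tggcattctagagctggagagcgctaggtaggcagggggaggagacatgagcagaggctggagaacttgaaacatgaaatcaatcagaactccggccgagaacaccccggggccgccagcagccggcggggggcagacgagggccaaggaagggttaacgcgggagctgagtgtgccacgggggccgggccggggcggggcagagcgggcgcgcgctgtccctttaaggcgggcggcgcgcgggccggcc

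**Figure D4:**
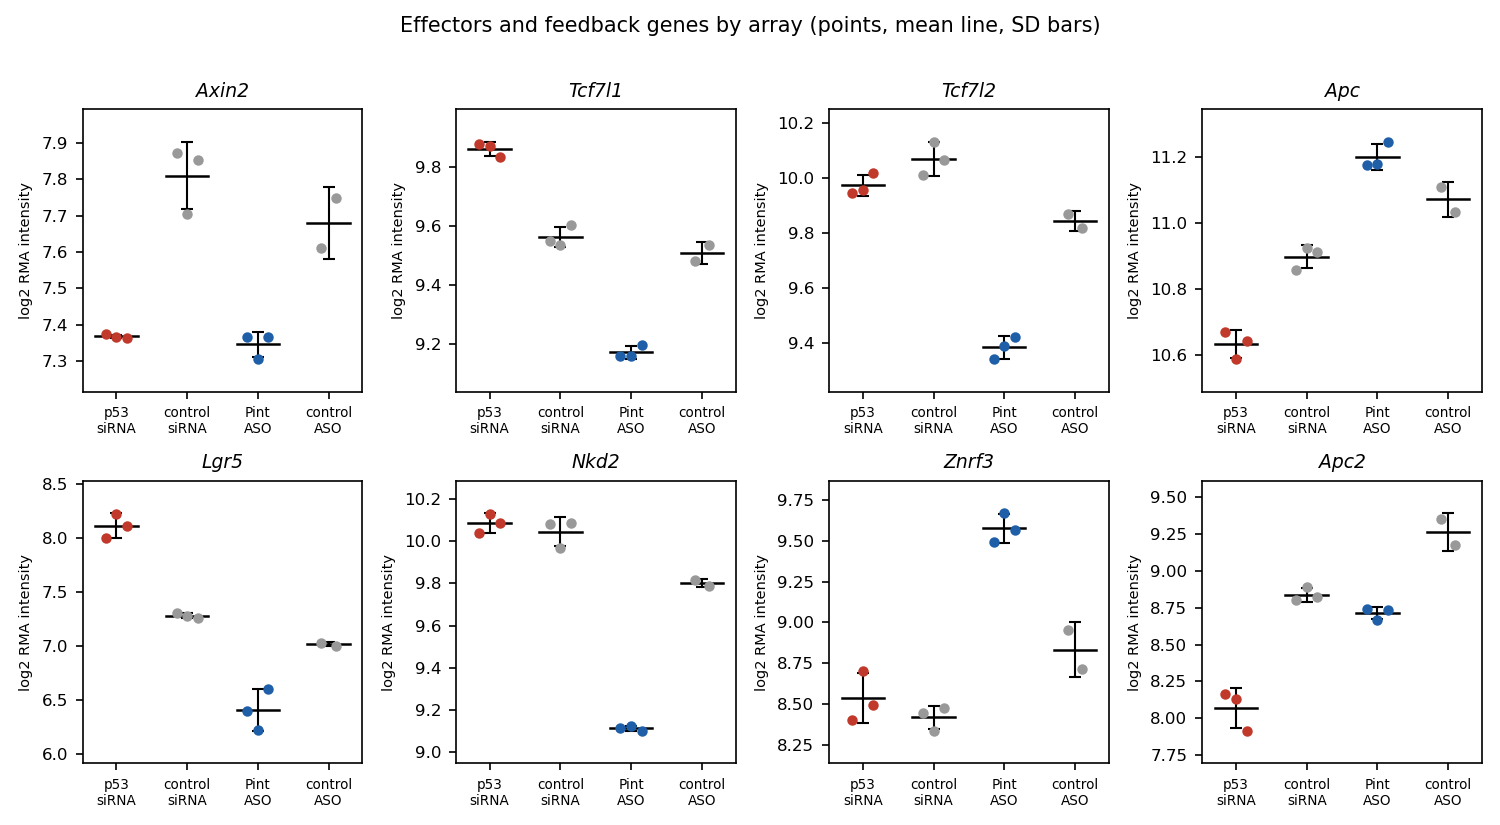
Log2 RMA intensity of the effectors Axin2, Tcf7l1, Tcf7l2 and Apc (upper row) and of Lgr5, Nkd2, Znrf3 and Apc2, other genes of the pathway (lower row), in each array (points, with a line at each mean and bars of 1 SD) for p53 siRNA, control siRNA, Pint ASO and control ASO; each panel has its own vertical scale. The Axin2 arrays of both knockdowns lay at 7.3 to 7.37, below all controls, while Tcf7l1 and Lgr5 were highest with p53 siRNA and lowest with Pint ASO.

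Both knockdowns changed 10 genes of the module, of which 8 went opposite ways (Fzd1, Fzd2, Fzd4, Sfrp1, Sfrp2, Dkk3, Lgr4 and Tcf7l1, each higher with p53 siRNA and lower with Pint ASO) and 2 the same way (Frzb and Axin2, lower with both). Over all genes tested, 9.24% were called in both, 4.89% in opposite directions and 4.35% in the same direction. In all, 22 of the 45 genes were called in at least 1 comparison and 23 in neither.

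The difference between the effects was tested directly as the change with Pint ASO minus the change with p53 siRNA. It was called for 19 of the 45 genes, 4 positive and 15 negative, where 18.5% of all probe sets (9.15% positive, 9.4% negative) and 24.1% of all genes (11.7% positive, 12.4% negative) were called. With B over 3 the count was 11, beside 3.61% of all probe sets, a share not counted by gene. Sfrp1 had the largest difference, at -1.87 on the log2 scale (SE 0.09, limma adjusted p = 3.89e-06), followed by Sfrp2 at -1.72 (SE 0.09, adjusted p = 5.64e-06) and Dkk3 at -1.57 (SE 0.10, adjusted p = 1.38e-05). These antagonists were higher with p53 siRNA and lower with Pint ASO than their own controls. Rspo2 (-1.25, SE 0.07, adjusted p = 8.55e-06) and Rspo3 (-1.13, SE 0.13, adjusted p = 0.000294) also differed, and neither had a called change with p53 siRNA. Fzd4 had the largest difference of the receptors, at -1.02 (SE 0.09, adjusted p = 7.3e-05).

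Positive differences were those of Wnt9a (0.76, SE 0.08, limma adjusted p = 0.00017), Fzd5 (0.66, SE 0.08, adjusted p = 0.000373), Fzd6 (0.62, SE 0.12, adjusted p = 0.00529) and Apc (0.39, SE 0.07, adjusted p = 0.00342). The effects on Frzb (difference -0.06, adjusted p = 0.85) and Axin2 (0.11, adjusted p = 0.484), which fell with both, were not shown to differ. Ror1 (-0.37, adjusted p = 0.0361) and Dkk1 (-0.61, adjusted p = 0.0458) were called for the difference without a call in either comparison. The calls of Porcn, Ror1 and Dkk1 were lost when single arrays were left out, with adjusted p-values reaching 0.115 (Porcn, without control ASO replicate 1), 0.0962 (Ror1, without control ASO replicate 2) and 0.13 (Dkk1, without control ASO replicate 2).

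**Figure D5:**
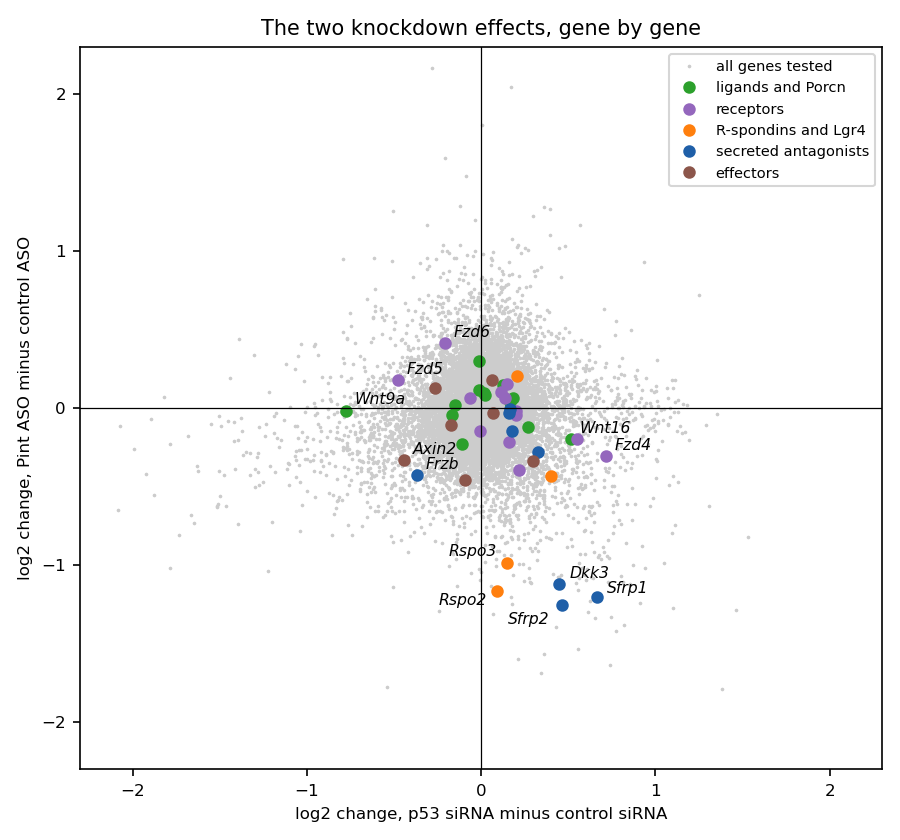
Log2 change with p53 siRNA minus control siRNA (horizontal) and with Pint ASO minus control ASO (vertical) for the 45 Wnt genes, coloured by role, and for all genes tested (grey). Sfrp1, Sfrp2 and Dkk3 lie at the lower right, up to 0.66 on the horizontal and down to -1.26 on the vertical axis, Rspo2 and Rspo3 lie low near the middle, and Wnt9a lies at the left at -0.78.

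The controls differed for 2 of the 45 genes, Sfrp2 and Rspo2, both lower with control ASO, beside 4.02% of all probe sets (2.29% higher, 1.73% lower) and 4.81% of all genes (2.67% higher, 2.14% lower). By limma, 7 of the 45 had an unadjusted p under 0.05, beside 3275 of all 16147 genes tested. With B over 3 no gene of the 45 was called, beside 0.595% of all probe sets. Arrays of the control groups did not overlap for 16 of the 45 genes, beside 36.7% of all genes. Sfrp2 was lower with control ASO than with control siRNA by 0.32 on the log2 scale (log2 change -0.32, SE 0.07, limma adjusted p = 0.0314) and Rspo2 by 0.29 (log2 change -0.29, SE 0.05, adjusted p = 0.018), both in the direction of the Pint ASO change and much smaller than it. Tcf7l2 differed by -0.22 (adjusted p = 0.0518), Dkk3 by -0.29 (adjusted p = 0.0616) and Sfrp1 by -0.15 (adjusted p = 0.29), none called. Also not called were Dkk1 (-0.30, limma adjusted p = 0.299), Fzd6 (-0.24, adjusted p = 0.175) and Apc (0.17, adjusted p = 0.101). The change of Tcf7l2 with Pint ASO was -0.46, so its control difference was not small beside it. Nor were those of Fzd6 (Pint ASO change 0.41), Dkk1 (-0.28) and Apc (0.13). These arrays are the same controls as in both knockdown comparisons. The calls were lost without either control ASO array (adjusted p of 0.0629 to 0.183 for Sfrp2 and 0.0728 to 0.0943 for Rspo2), without any one control siRNA array for Sfrp2 (0.073 to 0.101), without control siRNA replicate 2 or 3 for Rspo2 (0.054 and 0.0707), and without p53 siRNA replicate 3 for Sfrp2 (0.0554).

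Outside the module, 94 further genes of the pathway were listed and 93 tested, Wnt8b being below the filter. With p53 siRNA 11 rose, 17 fell and 65 were not called, and with Pint ASO 14 rose, 24 fell and 55 were not called. The called shares were 30.1% and 40.9%, beside 21.3% and 25.2% of all genes tested. The list of 18 receptors, coreceptors, agonists and antagonists had 3 that rose and 3 that fell with p53 siRNA, and 2 that rose and 9 that fell with Pint ASO. Of 14 targets widely used as readouts of beta-catenin, 5 rose and 3 fell with p53 siRNA and 3 rose and 2 fell with Pint ASO. The other lists had 2 and 5 of 25 (transducers and the destruction complex), 1 and 4 of 15 (nuclear partners), 0 and 1 of 13 (planar polarity) and 0 and 1 of 8 (other ligands) higher and lower with p53 siRNA. With Pint ASO these counts were 6 and 4, 0 and 5, 3 and 2, and 0 and 2.

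Lgr5, an R-spondin receptor related to Lgr4 and a stem cell marker in the gut, went the way of Lgr4. It read 8.0, 8.23 and 8.12 with p53 siRNA, against 7.31, 7.27 and 7.26 with control siRNA, and 6.40, 6.22 and 6.60 with Pint ASO, against 7.03 and 7.0 with control ASO. The groups were apart in both comparisons. Lgr5 rose 1.78-fold with p53 siRNA (log2 change 0.83, SE 0.09, limma adjusted p = 0.000224) and fell 1.53-fold with Pint ASO (log2 change -0.61, SE 0.10, adjusted p = 0.00308), with a difference of -1.45 (adjusted p = 0.000112).

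Other called genes with a log2 change of at least 0.5 in either direction fell into several groups. With Pint ASO, Znrf3, the ligase that removes Frizzled from the surface and is itself inhibited by R-spondins, rose by 0.74 (limma adjusted p = 0.00109) and Myc, a classical target, by 0.87 (adjusted p = 4.85e-05), while Fjx1 of the planar polarity list rose by 0.57 (adjusted p = 0.00734). Nkd2, an inhibitor of Dishevelled, changed by -0.69 (adjusted p = 5.14e-05), Ptk7, a coreceptor of the planar polarity branch, by -0.65 (adjusted p = 6.08e-05) and Sostdc1, a secreted antagonist, by -0.57 (adjusted p = 0.00155). The p53 siRNA changes of Znrf3, Nkd2, Sostdc1 and Fjx1 were 0.12, 0.04, -0.04 and 0.14, none called. Znrf3 was higher with control ASO than with control siRNA by 0.42, which was not called (limma adjusted p = 0.0593).

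With p53 siRNA, Jup, the relative of beta-catenin at cell junctions, changed by -0.62 (limma adjusted p = 2.74e-05) and Dkkl1, a Dickkopf-like gene, by -0.63 (adjusted p = 0.000232), and both also fell with Pint ASO, by 0.28 and 0.41. Apc2, the relative of Apc, fell with both, by 0.77 with p53 siRNA (adjusted p = 0.000101) and 0.55 with Pint ASO (adjusted p = 0.00176). Dact1, a binding partner of Dishevelled, rose with both, by 0.77 (adjusted p = 0.000195) and 0.55 (adjusted p = 0.00309). Ptk7 and Myc were also called with p53 siRNA, at -0.38 and 0.30. The control groups differed as well for Myc, which was higher with control ASO than with control siRNA by 0.52 (limma adjusted p = 0.0039). The control difference was also called for Fjx1 (0.50, adjusted p = 0.0447), Apc2 (0.42, 0.0247), Sostdc1 (-0.40, 0.0336) and Nkd2 (-0.24, 0.0373), but those 4 calls were lost when single arrays were left out, among them control ASO replicate 1 (adjusted p = 0.172, 0.162, 0.161 and 0.135).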

How the data were processed

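The 11 arrays were processed by the authors with RMA (robust multichip average: background correction, quantile normalization and summary of probes), and the deposited values are log2 intensities per probe set, used here as deposited. The methods name more than one Affymetrix array. Arrays carry no read depth, and their number, 3 in each group and 2 for control ASO, limits the precision. Of 34760 probe sets, 21640 had a single gene symbol in the platform annotation, 1321 had several and 11799 none, and genes were named from the first class only. For a gene with several probe sets the one with the highest mean over all arrays was used.

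Group means were fitted with limma 3.58.1 in R 4.3.3 over all 4 groups, with empirical Bayes moderation without a trend, on probe sets whose log2 value passed 6 (64 before the logarithm) in 2 or more arrays of any group. P-values were adjusted by Benjamini-Hochberg over all 26038 probe sets tested, and an adjusted p under 0.05 was a call. A check of the fit on simulated data was also run. The genes and lists were chosen with earlier results of these data known. Values in every array are given for each of the 46 genes called in a knockdown comparison, and for other genes of the pathway those called with an absolute log2 change of at least 0.5 are named. Alternatives were the filter, normalization, probe sets, moderation, array weights, samples in the fit, replicate block, the threshold on B (the log odds of change, over 3, without a fold-change threshold) and each array left out. The p53 gene is not analysed here.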

Additional observations from a re-analysis of the deposited data

Results flagged for a closer look

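The effects of the knockdowns differed, by the limma test of the Pint ASO change minus the p53 siRNA change (adjusted p under 0.05), for 19 genes of the module. All values that follow are that difference on the log2 scale. The ligand group held Wnt9a at 0.76, Wnt16 at -0.71 and Porcn at -0.39. The receptors were Fzd1 at -0.61, Fzd2 at -0.75, Fzd4 at -1.02, Fzd5 at 0.66, Fzd6 at 0.62 and Ror1 at -0.37. The R-spondin group held Rspo2 at -1.25, Rspo3 at -1.13 and Lgr4 at -0.83. The antagonists were Sfrp1 at -1.87, Sfrp2 at -1.72, Dkk3 at -1.57 and Dkk1 at -0.61, and the effectors Tcf7l1 at -0.64, Tcf7l2 at -0.36 and Apc at 0.39.

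Of the other named genes of the pathway, the difference was called for Lgr5 at -1.45, Nkd2 at -0.73, Znrf3 at 0.63, Myc at 0.57, Sostdc1 at -0.52, Jup at 0.34 and Ptk7 at -0.27. Those of Apc2 (0.22), Dact1 (-0.22), Dkkl1 (0.22) and Fjx1 (0.43) were not called.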

How the results depend on the processing

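No direction of a called gene was reversed under any alternative. Of the 15, 17 and 19 genes called for p53 siRNA, Pint ASO and the difference of the effects, 5, 7 and 11 were called under every alternative, and 12, 8 and 16 whichever array was left out. Leaving out each array in turn gave 12 to 17, 10 to 16 and 16 to 19 calls, and 0 to 3 for control ASO against control siRNA, where 2 genes were called. The stricter threshold of B over 3 left 5, 7 (0 higher, 7 lower), 11 and 0 calls. Fitted on its own 2 groups, the p53 siRNA comparison called 19 genes (13 higher, 6 lower), the Pint ASO comparison 8 (0 higher, 8 lower) and the control comparison 0. Over all 26038 probe sets these fits called 4303, 1890 and 61. The difference of effects cannot be fitted so. With array weights the p53 siRNA comparison called 21 genes (14 higher, 7 lower), beside 5715 of all probe sets. The control comparison called 1 gene with no filter, 1 with median centring, 4 over probe sets with 1 symbol and 5 with trend and robust moderation. The cause was not tested. Deviations of same-numbered siRNA arrays correlated at -0.284, -0.181 and -0.0371, which gave no sign of pairing by number. The ASO arrays bear 1 set of numbers in their titles (-0.0463 and -0.42) and another in their descriptions (0.42 and 0.375). The 2 control ASO arrays deviate from their mean by equal and opposite amounts, so the sign depends on the numbering. Whether the ASO arrays were paired was therefore not settled. With the replicate block by title number 14, 13, 17 and 0 genes were called for p53 siRNA, Pint ASO, the difference and the controls, and by description number 14, 15, 17 and 0. For Lncpint, the threshold of B over 3 was missed by the change with p53 siRNA (-0.54), the difference (-1.23) and the higher level in control ASO than in control siRNA (0.71). The last was also not called in its 2 groups alone (0.71, limma adjusted p = 0.156), with the replicate block by title number (0.69, adjusted p = 0.0665), or without control siRNA replicate 3 or control ASO replicate 1 (over all arrays left out, 0.61 to 0.84).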
